A study of Aconitum carmichaelii with 4 samples.

Results

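The unigenes described here are those of the Aconitum carmichaelii transcriptome whose level was nearly the same in flower, bud, leaf and root. A unigene is one assembled transcript. A unigene was taken when it was the only transcript of its assembled gene, when at least 300 fragments were assigned to it in each of the 4 libraries, and when its highest TPM (a relative transcript level that is corrected for length and has the same sum in every library) was at most 1.3 times its lowest. Of 128183 unigenes, 82552 were the only transcript of their gene, 738 of these had the required fragments in every library, and 30 met the ratio, which is 4.07% of the 738. The choice was made on the TPM values and counts of all 4 libraries, so the levels and ratios of the 30 unigenes are given as a description, and no test was made on them.

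A. carmichaelii is a medicinal herb whose roots accumulate diterpene alkaloids. RNA was sequenced from flower, bud, leaf and root, with 1 library per tissue, from 3-year-old plants that grew outdoors without any treatment and are labelled as the same plant material. The labels do not say how many plants were pooled in a library, and neither replicate plants nor replicate libraries are among the samples used here. Intervals below are therefore exact 95% intervals that cover counting error only, and no difference between tissues could be tested against the spread between plants.

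Genes with a like level in all tissues are used as internal references when the expression of other genes is measured, for example by quantitative PCR. Most of them serve functions that every plant cell needs, such as the cytoskeleton, protein synthesis, protein turnover and vesicle traffic, and are often called housekeeping genes. Membership in such a family does not fix the level, because families such as actin and tubulin hold several genes with their own tissue patterns. In whole tissues, fewer cells that express a gene and less RNA of it per cell cannot be told apart.

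The libraries held between 4811266 fragments in root and 7057551 in flower. In flower 5.04% of the fragments fell on the 10 most abundant unigenes, and in leaf 20.7%. Tissue labels were set beside the few unigenes with telling names. Both photosystem II unigenes were highest in leaf on all 4 scales used below, but on few fragments. The cytochrome b559 unigene had 6, 2, 26 and 0 fragments in flower, bud, leaf and root, and photosystem II K had 3, 2, 12 and 8. On the same scales, the diterpene synthase unigenes set as root markers, CDPS4, KS1 and KS2, were highest in root. The study had already reported these 3 as high in root from these same libraries, so they are no separate check of the root label. These 3 do not stand for their family, since 3 of its 7 unigenes in the study's list, CDPS1, CDPS2 and CDPS3, were highest in leaf and 1, KS3, in bud. The 8 unigenes with FUL or MADS-box names, which code for transcription factors known from flower development, did not mark the reproductive tissues. None was highest in flower, 1 was highest in bud, 4 in leaf and 3 in root, and their summed TPM was 54.5, 50.7, 267 and 46.5 in flower, bud, leaf and root. The 1 in bud rested on 1, 2, 0 and 0 fragments in flower, bud, leaf and root. The 4 in leaf belonged to a single group of linked transcripts in the assembly, and the 3 in root were transcripts of a single assembled gene.

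Evenness was uncommon among the 738 well-covered single-transcript unigenes. Only 1 of them had a highest-to-lowest TPM ratio of at most 1.1, 13 had one of at most 1.2, 99 (13.4%) of at most 1.5 and 287 (38.9%) of at most 2. The median ratio of the 708 unigenes above the limit was 2.36, and the highest was 358. The ratios of the 30 ran from 1.03 to 1.298 with a median of 1.205.

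**Figure D1:**
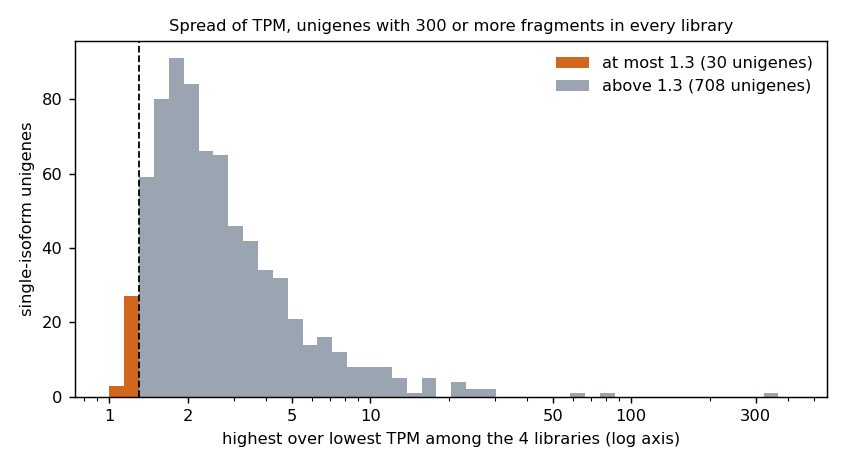
Number of single-isoform unigenes (y axis) by the ratio of their highest to their lowest TPM among the 4 libraries (x axis, log scale), for the 738 with at least 300 fragments in every library. The dashed line marks a ratio of 1.3, and the 30 unigenes to its left lie in the lower tail, while most of the other 708 lie between 1.3 and 10.

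The limit of 1.3 cut through a continuous range. The 3 members just inside it were TR46566|c0_g1_i1 with a ratio of 1.28, TR15189|c0_g1_i1 with 1.297 and TR47277|c0_g4_i2 with 1.298. The 3 unigenes just outside were TR44394|c2_g1_i2 with 1.31, TR41011|c0_g1_i2 with 1.32 and TR35697|c0_g1_i1 with 1.32. At the limit on fragments, the smallest count among the 4 libraries was 305 for TR48658|c0_g1_i1, 310 for TR42482|c0_g1_i1 and 312 for TR15189|c0_g1_i1, while the even unigenes left out just below it, TR46986|c0_g1_i3, TR48626|c0_g1_i1 and TR42568|c1_g1_i1, had smallest counts of 287, 287 and 292. The TPM ratios of these 3 were 1.24, 1.23 and 1.22.

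Libraries are called highest or lowest by TPM here, and the effect of other scales is given further on. The levels of the 30 unigenes spanned a wide range, with mean TPM values from 6.81 to 1252 and a median of 61.1. Their share of all fragments was 0.577% (0.571 to 0.582), 0.547% (0.541 to 0.553), 0.413% (0.407 to 0.418) and 0.505% (0.498 to 0.511) in flower, bud, leaf and root. On the TPM scale their sum was 3697, 3673, 3479 and 3666 in flower, bud, leaf and root. The leaf sum was the lowest, and the 2 most abundant unigenes, TR31291|c0_g1_i1 and TR35932|c1_g1_i1, were themselves lowest there, whereas the median TPM over the 30 was 57.7, 57.8, 65.2 and 59.5 in flower, bud, leaf and root.

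TR31291|c0_g1_i1, a transcript of 735 bases, was the most abundant. Its TPM was 1301, 1291, 1107 and 1309.8 in flower, bud, leaf and root, from 7646, 6972, 3759 and 4629 fragments. Flower, bud and root lay close together and leaf alone was lower, with a root-to-leaf ratio of 1.18 (1.13 to 1.24). The second, TR35932|c1_g1_i1 of 1554 bases, had TPM values of 502, 441, 410.2 and 491 in flower, bud, leaf and root. Flower and root stood above bud and leaf. Its flower-to-leaf ratio was 1.22 (1.18 to 1.28), and 5 of its 6 tissue ratios had intervals that excluded 1.

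TR15189|c0_g1_i1, with 331 bases the shortest of the 30, had TPM values of 322, 400.4, 358 and 309 in flower, bud, leaf and root. It was highest in bud, and its bud-to-root ratio of 1.297 (1.13 to 1.49) rested on 622 and 312 fragments. TR38332|c0_g1_i1 had TPM values of 180.2, 158, 182 and 175 in flower, bud, leaf and root. Here bud alone stood lower, while the ratios among the other 3 libraries had intervals that held 1. TR35623|c0_g2_i2 had TPM values of 125, 139, 157 and 123 in flower, bud, leaf and root, so leaf and bud stood above flower and root. The sixth by level, TR34817|c0_g1_i1, had TPM values of 98.7, 117, 104 and 117 in flower, bud, leaf and root, with bud and root above flower and leaf.

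**Figure D2:**
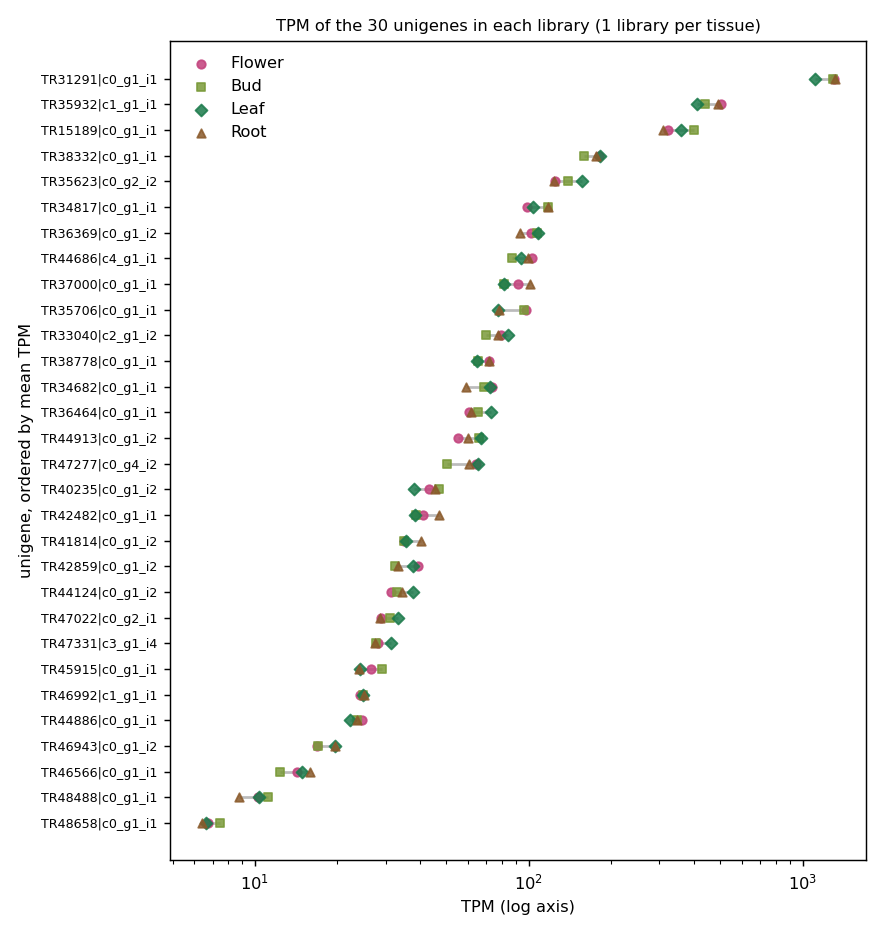
TPM (x axis, log scale) of each of the 30 unigenes (y axis, ordered by mean TPM) in flower, bud, leaf and root, with 1 point per library and a grey line from the lowest to the highest. The points of a unigene lie close together at every level, from 6.38 TPM in root for the lowest unigene to 1309.8 TPM in root for the highest, and no library sits on the same side in all rows.

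TR46992|c1_g1_i1, of 3919 bases, was the most even unigene. Its TPM was 24.3, 24.8, 24.8 and 25.1 in flower, bud, leaf and root, a root-to-flower ratio of 1.03 (0.932 to 1.15). TR44886|c0_g1_i1, of 3059 bases, had TPM values of 24.6, 23.6, 22.3 and 23.6 in flower, bud, leaf and root, a flower-to-leaf ratio of 1.101 (0.972 to 1.25). TR38778|c0_g1_i1, of 1067 bases, had TPM values of 71.5, 65.2, 64.9 and 71.6 in flower, bud, leaf and root, a root-to-leaf ratio of 1.103 (0.953 to 1.28). In these 3 unigenes none of the 6 tissue ratios had an interval that excluded 1, so their order of tissues could not be read at this depth. The remaining 27 had at least 1 ratio whose interval excluded 1, as did 99.6% of the 738. With 6 intervals for each unigene, some exclude 1 by counting error alone, and the interval of the largest ratio makes no allowance for its choice among the 6.

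**Figure D3:**
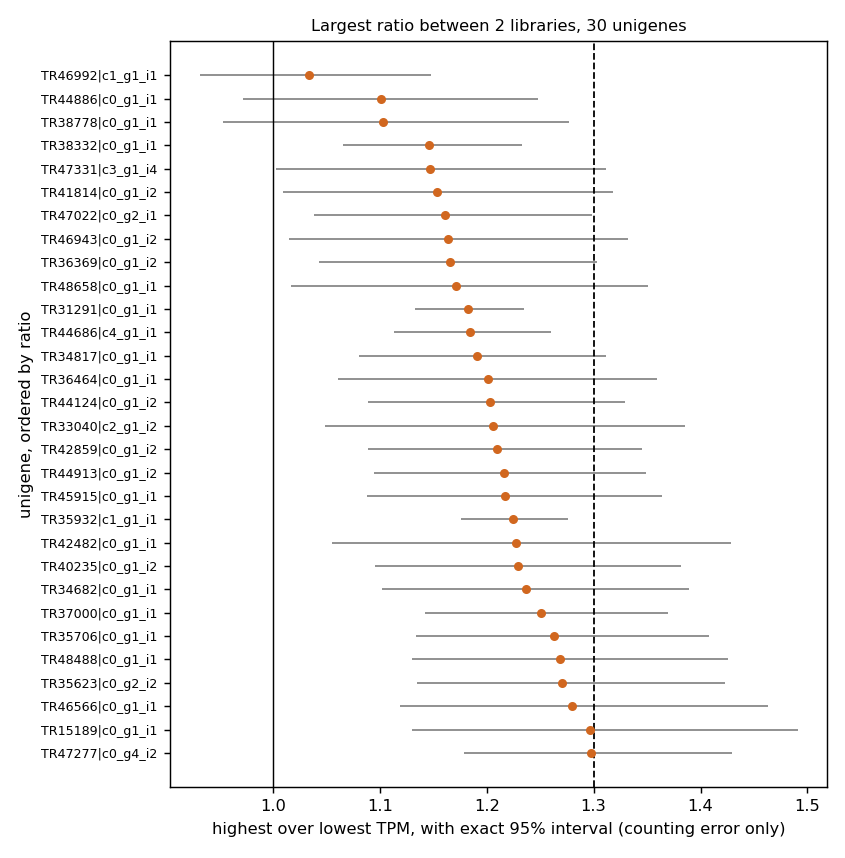
Highest-to-lowest TPM ratio (x axis) of each of the 30 unigenes (y axis, ordered by ratio), with points for the ratio and bars for its exact 95% interval, which covers counting error only. The solid line marks 1 and the dashed line 1.3. The bars of 3 unigenes reach 1, and those of 22 reach past 1.3.

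The depth resolved the limit of 1.3 for few of the 30. An interval wholly within the limit also keeps the ratio itself within it, so only members of the 30 could qualify. In 8 of them all 6 tissue ratios had intervals wholly within 1.3-fold in either direction, which is 1.08% of the 738. They were TR46992|c1_g1_i1, TR44886|c0_g1_i1, TR38778|c0_g1_i1, TR38332|c0_g1_i1, TR47022|c0_g2_i1, TR31291|c0_g1_i1, TR44686|c4_g1_i1 and TR35932|c1_g1_i1. In the other 22 the interval of the largest ratio reached above 1.3, up to 1.49 in TR15189|c0_g1_i1. The 30 were chosen for low ratios in these same counts.

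TR44124|c0_g1_i2 was the only one of the 30 with a gene name at hand, transport Sec23. Sec23 is a subunit of the COPII coat, which forms the vesicles that carry newly made proteins from the endoplasmic reticulum to the Golgi apparatus, and in yeast it activates the GTPase Sar1. Its TPM was 31.5, 32.9, 37.9 and 34.5 in flower, bud, leaf and root, from 967, 929, 670 and 638 fragments. Leaf was highest and flower lowest, with a ratio of 1.203 (1.09 to 1.33), and 2 of the 6 tissue ratios had intervals that excluded 1.

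The names at hand held 4 further Sec23 or Sec23-like unigenes in the same orthologous group, all of which missed the count limit. TR47583|c0_g3_i1 had TPM values of 10.01, 10.1, 9.20 and 10.8 in flower, bud, leaf and root, a ratio of 1.18 with a smallest count of 44. The ratio was 1.19 for TR47583|c0_g4_i3, 1.40 for TR47583|c0_g4_i1 and 1.498 for TR33932|c0_g1_i2. TR44124|c0_g1_i2 was the most abundant of the 5, with a mean TPM of 34.2 against 6.92 to 10.2 in the others. On the TPM scale leaf was its highest library but the lowest of 3 of the other 4. These 3 shared a component, and TR47583|c0_g4_i3 and TR47583|c0_g4_i1 were transcripts of the same gene. Leaf counts were 44 for TR47583|c0_g3_i1, 102 for TR47583|c0_g4_i3 and 96 for TR47583|c0_g4_i1, and no intervals were computed for them. With TMM and DESeq2 all 5 were highest in root.

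The longest of the 30 were also the least abundant. TR48488|c0_g1_i1, of 8284 bases, had TPM values of 10.3, 11.1, 10.4 and 8.78 in flower, bud, leaf and root, with root below the others. TR48658|c0_g1_i1, of 7882 bases, had TPM values of 6.74, 7.47, 6.63 and 6.38 in flower, bud, leaf and root. Only its bud-to-root ratio of 1.17 (1.02 to 1.35) had an interval that excluded 1. TR46566|c0_g1_i1, of 4278 bases, had TPM values of 14.2, 12.4, 14.8 and 15.8 in flower, bud, leaf and root, with bud lowest. With at least 300 fragments required, a long transcript could enter at a lower TPM than a short one.

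At the other end, TR31291|c0_g1_i1 and TR15189|c0_g1_i1, described above, were followed in length by TR33040|c2_g1_i2 with 887 bases. Its TPM was 79.4, 69.6, 83.9 and 76.9 in flower, bud, leaf and root, with leaf highest and bud lowest. TR35623|c0_g2_i2 came next with 901 bases.

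The library with the highest TPM differed from unigene to unigene. It was flower in 6, bud in 6, leaf in 10 and root in 8 of the 30, whereas among all 738 it was flower in 16.3%, bud in 9.21%, leaf in 21.4% and root in 53.1%. The lowest library was flower in 7, bud in 7, leaf in 7 and root in 9, against 29.4%, 30.2%, 22.8% and 17.6% of the 738. The median ratio over the 30 lay between 0.987 and 1.02 for each of the 6 pairs of tissues. The limit on the ratio bears on both counts, because a unigene with a clear excess in root could not enter. The limit on fragments bears on the 738 as well, because root had the fewest fragments and a unigene low there could fail it. Its part in the 53.1% was not tested. The same holds for the other values of the 738 by library given below.

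Besides those already described, leaf was highest in 6 unigenes. TR47331|c3_g1_i4 had TPM values of 28.3, 27.6, 31.5 and 27.5 in flower, bud, leaf and root. Leaf was highest and the others were alike, but the interval of the flower-to-leaf ratio held 1. TR36369|c0_g1_i2 had TPM values of 102, 107, 108 and 92.5 in flower, bud, leaf and root, with root alone lower. TR47022|c0_g2_i1, TR36464|c0_g1_i1, TR44913|c0_g1_i2 and TR47277|c0_g4_i2 had ratios between 1.16 and 1.298. TR47022|c0_g2_i1 had TPM values of 28.9, 31.25, 33.2 and 28.6 in flower, bud, leaf and root, and TR36464|c0_g1_i1 had 60.4, 65.25, 72.5 and 61.5. In both, leaf was highest and flower and root were alike, while the intervals of all ratios with bud held 1. TR44913|c0_g1_i2 had TPM values of 55.1, 66.0, 66.95 and 59.9 in the same order of libraries, with flower lowest, and TR47277|c0_g4_i2 had 64.1, 50.4, 65.4 and 60.5, with bud alone lower.

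Root was highest in 4 more. TR37000|c0_g1_i1 had TPM values of 91.1, 80.9, 81.0 and 101 in flower, bud, leaf and root, so bud and leaf were alike, flower intermediate and root highest. TR42482|c0_g1_i1 had TPM values of 41.1, 38.9, 38.4 and 47.2 in flower, bud, leaf and root. Root was again highest, and the ratios among the other libraries had intervals that held 1. TR41814|c0_g1_i2 had a TPM of 40.3 in root and 34.9 to 35.5 in the other libraries. TR46943|c0_g1_i2 split the libraries differently, with TPM values of 16.9 in flower and 17.0 in bud against 19.6 in leaf and 19.7 in root.

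Flower was highest in 4 more. TR35706|c0_g1_i1 had TPM values of 97.3, 95.7, 77.0 and 77.6 in flower, bud, leaf and root, so both reproductive libraries stood above leaf and root by a similar amount. TR44686|c4_g1_i1 had TPM values of 103, 87.0, 94.0 and 99.4 in flower, bud, leaf and root, with bud lowest. TR34682|c0_g1_i1 was lower in root, at 59.1 TPM, than in the other libraries, at 68.4 to 73.1 TPM. TR42859|c0_g1_i2 was higher in flower and leaf, at 39.2 and 37.7 TPM, than in bud and root, at 32.4 and 33.4 TPM, but the interval of its leaf-to-root ratio held 1. Bud was highest in TR45915|c0_g1_i1, with 29.1 TPM against 23.9 to 26.5 in the other libraries, and in TR40235|c0_g1_i2, with 46.99 TPM against 38.2 in leaf, its lowest library.

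Which unigenes counted as even depended on how the libraries were scaled. FPKM, a level per length and per fragment mapped, has no fixed sum per library, and the sum over all unigenes in leaf was below that of the other libraries. On that scale 27 of the 738 (3.66%) met the limit of 1.3, and 10 of them were among the 30. TMM factors, which assume that most unigenes do not differ between libraries, gave 13 (1.76%), of which 2 were among the 30. DESeq2 size factors, which rest on a similar assumption, gave 14 (1.9%), of which 1 was among the 30. TMM and DESeq2 shared 11 unigenes, FPKM shared 0 with either, and 0 unigenes were even on all 4 scales.

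A change of scale moved all 30 unigenes together, since it multiplies each library by 1 factor. Measured against the mean of the 4 libraries of the same unigene, the median log2 difference in root was 0.01 on the TPM scale, 0.37 with TMM and 0.40 with DESeq2 size factors. With TMM, root was the highest library in 30 of 30 unigenes. Over the 738 the highest library was then flower in 12.2%, bud in 3.25%, leaf in 15.2% and root in 69.4%. With DESeq2 root was likewise highest in 30 of 30, against 70.7% of the 738, in which flower, bud and leaf were highest in 12.2%, 2.57% and 14.5%. Bud was the lowest library in 22 of 30 with TMM (46.3% of the 738) and in 24 of 30 with DESeq2 (51.5%). The same median in root over all 738 unigenes was 0.33 on the TPM scale, 0.69 with TMM and 0.72 with DESeq2. On the FPKM scale leaf moved instead, with a median log2 difference of −0.21, and was the lowest library in 26 of 30 (45.4% of the 738). The highest FPKM was then in flower for 14, bud for 13, leaf for 0 and root for 3 of the 30, against 22.6%, 14.6%, 10.6% and 52.2% of the 738.

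**Figure D4:**
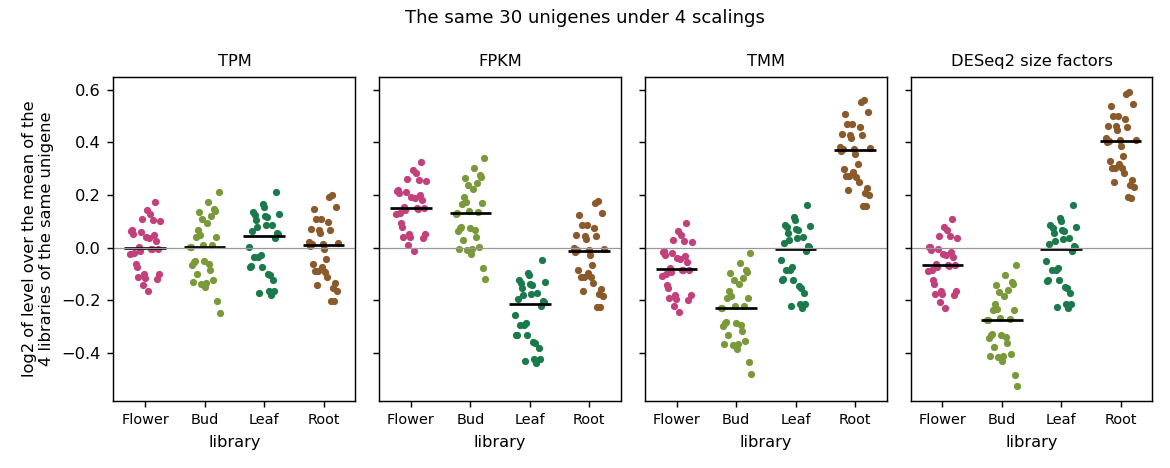
Log2 of the level in a library over the mean of the 4 libraries of the same unigene (y axis), for flower, bud, leaf and root (x axis), on the TPM, FPKM, TMM and DESeq2 scales (panels). Each point is 1 of the 30 unigenes and the bar is their median. The points centre near 0 in every library on the TPM scale, leaf lies below 0 with FPKM, and root lies above 0 with TMM and DESeq2.

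The composition of the libraries also differed. The 738 well-covered unigenes took a share of all fragments of 18.5%, 18.8%, 30.3% and 35.9% in flower, bud, leaf and root, while the share of the 30 was lowest in leaf and highest in flower. The limit on fragments favours unigenes high in leaf and root, the libraries with the fewest fragments. Its part in the shares of the 738 was not tested. The share of the most abundant unigenes, described above, does not rest on that limit. It was 5.04%, 8.51%, 20.7% and 17.6% in flower, bud, leaf and root. TMM factors were 1.18, 1.28, 0.865 and 0.767 for flower, bud, leaf and root. The part of this composition in the difference between scales was not tested. No added RNA standard was analysed here, and which scale is closest to RNA per cell cannot be told apart.

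TR48488|c0_g1_i1 was the only unigene that met the limit on 3 of the 4 scales. Its ratio was 1.27 on the TPM scale, 1.19 with TMM and 1.25 with DESeq2 size factors, and 1.41 on the FPKM scale. TR48658|c0_g1_i1 met it with TMM at 1.29 but not with DESeq2 at 1.36 or FPKM at 1.47. Among the 10 unigenes even on both the TPM and FPKM scales, TR44124|c0_g1_i2 (Sec23) had the lowest FPKM ratio, 1.13, with FPKM values of 46.3, 47.5, 41.9 and 44.8 in flower, bud, leaf and root. With TMM its ratio was 1.58, root being highest. The most even unigene on the TPM scale, TR46992|c1_g1_i1, had ratios of 1.31 with FPKM, 1.53 with TMM and 1.61 with DESeq2.

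The ratio of 2 unigenes within a library does not depend on the library scaling, so the 30 were also set against each other. Over the 435 pairs, the ratio between the pair varied between libraries by a median of 1.299-fold, and 219 pairs (50.3%) stayed within 1.3-fold. The steadiest pair was TR47022|c0_g2_i1 with TR36464|c0_g1_i1, whose ratio varied by 1.05-fold. Next came TR38332|c0_g1_i1 with TR33040|c2_g1_i2 at 1.05-fold and TR42482|c0_g1_i1 with TR37000|c0_g1_i1 at 1.06-fold. The unigenes of each of these pairs were highest in the same library, which was leaf in the first 2 pairs and root in the last. The least steady pair was TR46566|c0_g1_i1 with TR15189|c0_g1_i1 at 1.66-fold, of which the first was lowest and the second highest in bud.

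TR46992|c1_g1_i1 had the lowest mean SD of its log2 ratios to the other members, 0.13, and TR35706|c0_g1_i1 the highest, 0.22. The limit on the ratio keeps all of these values small. Against the whole set of 738, where the limit on fragments applied but not that on the ratio, the order changed. The 30 belong to this set and were chosen for a small spread, so their values in it are a description. The mean SD of the log2 ratio to all 738 had a median of 0.65 over the 30 and of 0.77 over all 738, and 2 of the 30 were among the 30 steadiest by this measure. These were TR46566|c0_g1_i1 at rank 23 and TR42482|c0_g1_i1 at rank 24, both highest in root, as were 53.1% of the 738, whereas TR46992|c1_g1_i1 ranked 75 and TR35706|c0_g1_i1 ranked 270.

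The root library removed more unigenes from the set than any other on the TPM scale. Among the 738, 164 were within 1.3-fold over flower, bud and leaf, against 74 without flower, 76 without bud and 58 without leaf. Of the 134 that were even in flower, bud and leaf but not in all 4 libraries, 110 were highest in root and 24 lowest there. All 738 had passed the limit on fragments in root, the library with the fewest fragments. A unigene low in root could fail that limit, and its part in the split of 110 to 24 was not tested. With both limits read over the remaining libraries only, 206 were even without root. The number was 74 without flower, 77 without bud and 90 without leaf.

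Other features of the 30 were set beside those of the 708 by their counts. Median length was 1686 bases in the 30 and 1664.5 bases in the 708 above the ratio, and 83.3% against 77% were longer than 1000 bases. A mean TPM of at least 100 was seen in 7 of 30 (23.3%) against 47.7% of the 708, and one under 30 in 8 of 30 (26.7%) against 10.3%. The median of the mean TPM was 61.1 against 94.5. Levels and counts entered the rule, so these values are a description of what it took. The lowest count was in leaf for 17 of 30 (56.7%, against 54.5% of the 708) and in root for 13 (43.3% against 26.8%).

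In the identifiers, the TR and c numbers name a component of the assembly, g a gene within it and i an isoform. Of the 30 unigenes, 25 (83.3%) were the only one of their component, against 73.6% of the 708. An isoform number above 1 was carried by 11 of 30 (36.7%) against 24.3%, so the isoform numbered 1 of these genes is not among the unigenes used here. Redundant transcripts were removed after assembly, and the part of that step in the counts was not tested.

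The other 5 unigenes had companions in their component that could share reads with them. TR44686|c4_g1_i1 held between 96.6% and 98.3% of the fragments of its component, whose summed TPM was 115, 107, 107 and 112 in flower, bud, leaf and root, a ratio of 1.07. TR38332|c0_g1_i1 held 75.01% to 83.9%, and the sum over its component had a ratio of 1.34. For TR47331|c3_g1_i4 the companions differed by tissue. It held 68.2% of the component's fragments in leaf and 91.3% to 95.7% elsewhere, and the summed TPM was 119 in leaf against 35.8 to 44.0 in the other libraries, a ratio of 3.32. The component ratio was 1.79 for TR47022|c0_g2_i1 and 1.40 for TR47277|c0_g4_i2, so evenness held for these 4 unigenes but not for their components.

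The families from which reference genes are usually taken were looked up by name. The names at hand gave 154 unigenes of actin, tubulin, ubiquitin, histone H3 or H4, elongation factors, heat shock 70 proteins, ribosomal proteins, vacuolar ATPase and a few further families. Of these, 51 were the only transcript of their gene, 30 had at least 300 fragments in every library, and 6 had both. None of the 6 was within 1.3-fold, so none of the 30 even unigenes came from this list. Sec23 was the only one of the 30 with a name at hand, so unnamed members of these families could be among the rest. With 4.07% of the 738 within the limit, a count of 0 of 6 says little of the list. Among the 30 of the list with enough fragments, 3 were within 1.3-fold and the median ratio was 1.90, against 4.23% and a median of 2.24 over all 1205 unigenes with enough fragments.

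Ubiquitin, the small protein that marks other proteins for degradation, held 2 of the 3 even unigenes of the list. It also held 10 of the 30 with enough fragments, while histone H3 or H4 had 1 even unigene of 2. TR44228|c6_g4_i15 had a TPM ratio of 1.23 and TR35249|c1_g1_i2 one of 1.26, while TR36191|c3_g3_i3 had one of 3.43, with bud lowest on all 4 scales. The only named single-transcript ubiquitin with enough fragments, the polyubiquitin TR31992|c2_g9_i2, missed the limit narrowly. Its TPM was 247, 243, 303 and 323 in flower, bud, leaf and root, a ratio of 1.33. The third even unigene of the list was TR37253|c2_g1_i3, a histone H3 with a ratio of 1.27, and its sister isoform TR37253|c2_g1_i2 had a ratio of 1.52, with bud highest by TPM and FPKM and root highest with TMM and DESeq2.

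Most even ubiquitin genes had been left out because they were assembled into several transcripts. With levels summed over each gene, an alternative added after the data were seen, 22 genes of the list had enough fragments and 4 were within 1.3-fold, against 5.51% of all 1343 genes with enough fragments. The median ratio was 2.23 for the 22 and 2.17 for the 1343. Ubiquitin gene TR34065|c1_g2, a sum of 11 unigenes, had summed TPM values of 899.6, 843, 914 and 818 in flower, bud, leaf and root, a ratio of 1.12. Ubiquitin gene TR44228|c6_g4 had 1478, 1417, 1563 and 1370.3 in flower, bud, leaf and root, a ratio of 1.14. Both were highest in leaf and lowest in root by TPM, but highest in flower by FPKM and in root with TMM and DESeq2.

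Ubiquitin gene TR35249|c1_g1 had summed TPM values of 1229, 1495, 1330.1 and 1301 in flower, bud, leaf and root, a ratio of 1.22, with bud highest by TPM and FPKM and root highest with TMM and DESeq2. The histone H3 gene TR37253|c2_g1 had 576, 638, 522 and 649 in flower, bud, leaf and root, a ratio of 1.24. With TMM these 4 genes had ratios of 1.46, 1.46, 1.44 and 1.65, so none was within 1.3-fold on that scale, and with FPKM TR44228|c6_g4 alone was, at 1.26. The ubiquitin sums were near the level of TR31291|c0_g1_i1, the most abundant of the 30 unigenes, but near-identical repeats make the division of reads among their transcripts uncertain.

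Among the genes named at hand, actin and tubulin, the building blocks of the cytoskeleton, had none within 1.3-fold. All 4 well-covered unigenes named actin belonged to 1 gene and were highest in root on all 4 scales. Their ratios included 2.33 for TR43897|c6_g1_i6, 2.83 for TR43897|c6_g1_i2 and 3.55 for TR43897|c6_g1_i1. The summed TPM of this gene was 856, 734, 556 and 1586 in flower, bud, leaf and root, so root stood far above the other libraries. In tubulin, the alpha-tubulin unigenes TR39549|c2_g1_i3 and TR39549|c2_g1_i1 had ratios of 1.43 and 1.73. Another alpha-tubulin, TR42031|c2_g1_i1, had one of 8.27, being highest in flower on all 4 scales.

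No well-covered unigene named as one of the other families was within 1.3-fold either. For heat shock 70, a chaperone, TR43222|c6_g2_i2 had a ratio of 1.51, TR42385|c4_g6_i1 one of 1.67 and TR45922|c5_g4_i1 one of 5.02. The elongation factor TR48137|c3_g3_i1, which acts in protein synthesis, had a ratio of 2.89, and the acidic ribosomal protein TR31212|c0_g1_i1 one of 2.76, both highest in root on all 4 scales. Fructose-bisphosphate aldolase TR38524|c1_g1_i2, a glycolytic enzyme, had a ratio of 3.06, and the vacuolar ATPase unigenes TR38056|c2_g2_i1, TR38056|c2_g2_i3 and TR38056|c1_g1_i2 had 2.01, 2.20 and 2.36. All 4 of these were highest in flower by TPM and FPKM and in root with DESeq2, and with TMM flower stayed highest for TR38056|c1_g1_i2.

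**Figure D5:**
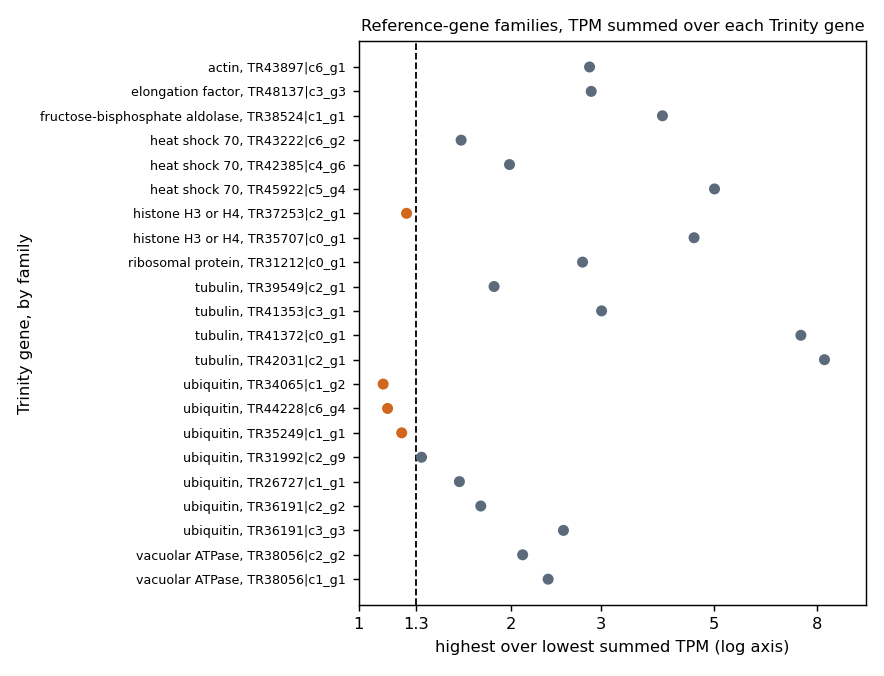
Highest-to-lowest ratio of summed TPM among the 4 libraries (x axis, log scale) for each gene of the reference families with at least 300 fragments in every library (y axis, grouped by family), 1 point per gene. The dashed line marks 1.3. Of the 22 genes, 3 ubiquitin genes and 1 histone H3 gene lie to its left, and actin and all tubulin genes lie to its right.

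Among all 738 unigenes, 17 had a name at hand, and Sec23 was the only one of these within 1.3-fold. The next were the polyubiquitin described above and TR38350|c1_g1_i1, named glycogen synthase kinase-3, a protein kinase, with TPM values of 145, 163, 133 and 177 in flower, bud, leaf and root and a ratio of 1.33, with root highest except by FPKM, where bud was. At the far end was the metallothionein TR36151|c0_g2_i1, a small metal-binding protein, with a ratio of 23.5 and its highest level in root on all 4 scales.

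None of the 30 was among the unigenes that the study named for terpenoid backbone and diterpene biosynthesis. The study listed 52 of them and 21 cytochrome P450 unigenes. It chose the P450 list for correlation with CDPS4 and KS2 and for high expression in root in these same libraries. That choice left little room for an even unigene among the 21. Of the 52, 22 were the only transcript of their gene and 4 of these had enough fragments, too few to set against the 4.07% of the 738. GGPPS1, which makes geranylgeranyl diphosphate, had a TPM ratio of 1.67 with root highest on all 4 scales. IPPI1, ISPH and ISPG had ratios of 5.24, 5.55 and 6.34 with leaf highest by TPM, but by FPKM flower was highest for ISPH and ISPG, and with TMM and DESeq2 root was highest for ISPG. At any count, 0 of the 52 and 0 of the 21 were within 1.3-fold. Of the 52, 45 had at least 1 fragment in every library, and over all 52164 such unigenes 1.58% were within the limit. The lowest ratio among the 52 was 1.36 for PMK3, a phosphomevalonate kinase of the mevalonate pathway, and that among the 21 was 2.06.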

How the data were processed

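The authors trimmed paired reads with Trimmomatic, assembled all tissues together with Trinity, removed redundant transcripts, aligned the reads with Bowtie 2 and quantified them with RSEM. No genome was used. The authors deposited, for each unigene, the expected count of fragments that RSEM assigned to it, without normalization and always a whole number in these tables. They also deposited TPM, FPKM and an isoform percent, which was 100 in every library for the 30 unigenes. For fragments that match several unigenes, the rule of division was not found in the paper or labels. A joint deposited FPKM table was identical to the library tables.

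The 30 unigenes and the gene lists were chosen with earlier results of these data known. Ratios used TPM. Their intervals are exact conditional binomial intervals of the counts, scaled as TPM is, and shares have exact Clopper-Pearson intervals, all at 95%, covering counting error only. With 1 library per tissue no p-value was computed. TMM factors (edgeR 4.0.16, unigenes with at least 20 summed fragments) and size factors (DESeq2 1.42.0) were applied to counts per effective length. The limits on count and ratio and the intervals were tried on simulated data that held counting error only. The condition of a single transcript per gene was not part of that trial. Libraries held 4811266 to 7057551 fragments.

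Named unigenes are the 6 with the highest mean TPM, the 5 with the lowest ratio, the 3 longest and the 3 shortest, those with a name, 3 on either side of each limit, and from each reference family the 2 with the lowest and the 1 with the highest ratio among those with enough fragments. The remaining unigenes, the Sec23 relatives, the components and the summed genes were named after their values were seen. Names come from the study's annotation tables, which were at hand in part and covered 2577 unigenes. The alternatives were other scales, limits, counts and sets of libraries.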

Additional observations from a re-analysis of the deposited data

How the results depend on the processing

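Each library is the only one of its tissue, so differences between tissues and between plants cannot be told apart, and the ratios of unigenes chosen for evenness in these counts have no check in other libraries. No paired analysis was possible because each tissue had 1 library. The number of even unigenes, 30, was 27 with FPKM and 25 with only unigenes alone in their component. It was 13 with TMM and 14 with DESeq2 size factors, 13 with a limit of 1.2 and 99 with 1.5, and 352, 109 and 4 with at least 1, 100 and 1000 fragments in every library. It was 51 with genes of several transcripts allowed and 74 with sums over each gene. With both limits read over 3 libraries it was 74 without flower, 77 without bud, 90 without leaf and 206 without root. The number with all 6 ratios resolved within 1.3-fold, 8, was 6 with 99% intervals, 1 with FPKM and 0 with TMM and with DESeq2. Flower was highest in 14, bud in 13, leaf in 0 and root in 3 of the 30 with FPKM, and with both TMM and DESeq2 flower, bud and leaf were highest in 0 and root in 30. The number of even reference-family unigenes, 3, was 1 with FPKM, 2 with TMM, 1 with DESeq2, 4 with at least 100 fragments and 4 with sums over each gene. Summed levels of the 30 with FPKM were 5430.0, 5299.5, 3841 and 4768 in flower, bud, leaf and root. A scale multiplies each library by 1 factor, which by construction moves all 30 together. The cause of the difference between scales was not tested.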
